A study of Rattus norvegicus with 18 samples.

Results

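The expression of 10 genes that mark the epithelium of the choroid plexus, out of 12333 genes with a tested probe, was followed array by array in the hippocampus of rats given pilocarpine. They are Ttr, Kl, Folr1, Aqp1, Prlr, Kcne2, Otx2, F5, Slc4a5 and Kcnj13, and they were chosen by symbol because earlier results of these arrays had shown them to vary between arrays of a same group. Each gene was found on the array, by 13 probes in all, and Prlr, Kcne2 and F5 have 2 probes each, of which the brighter stands for the gene. The values that chose the genes are therefore described here without a test. The data are expression measurements on CodeLink Rat Whole Genome arrays, one sample per array, of hippocampi from adult male Wistar rats. Pilocarpine, a muscarinic agonist, was given after scopolamine methylnitrate and induced status epilepticus (SE), which was stopped with diazepam. The groups are D3 (3 days after SE, n = 5, arrays 11 to 15), D7 (7 days after SE, n = 5, arrays 31 to 35), Chronic (right after the first spontaneous seizure, n = 5, arrays 41 to 45) and Control (rats given saline only, n = 3, with array 26 matched to D3, array 36 to D7 and array 47 to Chronic). No genetic change or tissue-specific driver is part of this model.

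The choroid plexus hangs in the ventricles next to the hippocampus, and its single layer of epithelial cells secretes cerebrospinal fluid. These cells move sodium, bicarbonate, chloride and potassium across their membranes, let water follow, and make carrier proteins for the fluid. Neurons and glia of the hippocampus make little of most of these gene products, so the genes serve as markers of the epithelium. In RNA from dissected tissue, fewer cells of a type and less RNA per cell cannot be told apart.

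Promoters were found for 7 of the members, and none for Folr1, Kcne2 and Otx2. Among those 7, 2 hold a TATA box in the 300 bases that run from 250 before to 50 after the transcript start. These 2 promoters are shown as background, and a part of any promoter in the pattern across arrays was not tested. The sequences are those of RefSeq on the GRCr8 build, 5′ to 3′ on the strand of the gene, with the letters TATAAA, read on either strand, in capitals. The promoter of Kcnj13, which encodes the inward rectifier potassium channel Kir7.1, spans chr9:95518937-95519236 on the minus strand. That of Aqp1, the water channel aquaporin 1, spans chr4:85812534-85812833 on the plus strand.
Kcnj13: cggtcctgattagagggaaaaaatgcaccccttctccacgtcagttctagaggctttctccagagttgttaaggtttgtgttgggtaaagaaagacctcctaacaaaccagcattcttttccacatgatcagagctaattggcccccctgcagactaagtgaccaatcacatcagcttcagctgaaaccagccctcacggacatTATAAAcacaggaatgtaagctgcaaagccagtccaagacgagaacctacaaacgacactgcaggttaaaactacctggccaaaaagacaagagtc
Aqp1: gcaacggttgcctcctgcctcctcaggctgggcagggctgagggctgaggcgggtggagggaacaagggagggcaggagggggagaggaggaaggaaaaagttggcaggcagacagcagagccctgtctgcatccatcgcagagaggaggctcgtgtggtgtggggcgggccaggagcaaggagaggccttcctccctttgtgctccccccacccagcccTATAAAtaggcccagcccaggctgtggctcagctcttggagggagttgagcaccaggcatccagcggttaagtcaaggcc
The table had 8 promoters for 7 of the members, and those of Aqp1 and Kcnj13 held TATAAA, against 14.2% of the 33469 promoters in the table. The letters TAATCC, which are known as a binding string of Otx proteins, were in none of the 8 windows on either strand and in 7.17% of all promoters. TGTTTAC, a binding string of Fox proteins, was also in none of the 8 and in 3.78% of all. A match is only a match of letters, and these strings do not overlap one another in the windows.

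The members were high on some arrays and low on others within every group, with Kcne2 flagged good on all 18 arrays and Ttr and Folr1 flagged low on none. All 10 lay above their own median on D3 arrays 11 and 14, D7 arrays 33 and 35, Chronic arrays 41, 42 and 44 and Control array 26. On Chronic array 45 it was 9 of the 10. None lay above its median on D3 arrays 12, 13 and 15, D7 arrays 31, 32 and 34, Chronic array 43 and Control array 47, and 1 did on Control array 36. Intensities below are the deposited normalized values, on a linear scale where the median spot of an array is 1, and are listed by array number within a group.

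Among the secreted proteins, Ttr encodes transthyretin, which carries thyroxine in the fluid (chromosome 18, 12216684 to 12225972 on GRCr8). Its intensity was 257, 1.33, 5.95, 208 and 10.1 on the D3 arrays, 2.8, 2.13, 301, 2.56 and 299 on the D7 arrays, 164, 100, 4.48, 224 and 166 on the Chronic arrays, and 225, 5.16 and 70.3 on the Control arrays. The spots of D3 arrays 11 and 14, D7 array 33 and Chronic array 44 were flagged as saturated, so that these values are too low by an unknown amount, and that of D7 array 35 was flagged as contaminated and saturated and entered no fit. The highest array exceeded the lowest by 194-fold within D3, 141-fold within D7, 49.99-fold within Chronic and 43.7-fold within Control, and the 4 groups overlapped. F5 encodes coagulation factor V (chromosome 13, 79046657 to 79116247). Its intensity was 15.2, 0.571, 0.685, 10.7 and 0.81 at D3, 1.12, 0.412, 16.6, 0.146 and 8.87 at D7, 15.4, 4.59, 0.376, 22.5 and 3.72 in Chronic, and 6.98, 0.152 and 1.94 in Control. The arrays bright for F5 were those bright for Ttr, and the second probe of F5 had its lowest value, 0.0708, on Control array 36 and its highest, 15.9, on Chronic array 44.

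The ion channels and transporters followed the same arrays. Kcnj13 (chromosome 9, 95509228 to 95528400) read 13.2, 1.25, 0.345, 9.94 and 0.832 at D3, 1.28, 0.25, 20.1, 0.225 and 14.2 at D7, 24.3, 6.5, 0.321, 24.7 and 5.26 in Chronic, and 8.18, 0.221 and 3.5 in Control. The spot of Chronic array 42 was flagged as contaminated and entered no fit. Between arrays of a same group the intensity of Kcnj13 differed by up to 76.9-fold in Chronic, and in D3, D7 and Control its lowest spots were flagged low, so that no fold is given there. Kcne2, a beta subunit of potassium channels (chromosome 11, 45003468 to 45015942), read 6.84, 0.499, 0.51, 4.46 and 0.434 at D3, 0.73, 0.758, 11.3, 0.577 and 7.6 at D7, 10.3, 2.36, 0.574, 9.21 and 2.43 in Chronic, and 4.21, 0.555 and 1.18 in Control. Its spot was flagged good on all 18 arrays, and it was high on the same arrays as Kcnj13. Slc4a5, an electrogenic sodium bicarbonate cotransporter (chromosome 4, 117267803 to 117368024), read 1.96, 0.316, 0.0533, 1.78 and 0.251 at D3, 0.217, 0.0931, 2.48, 0.0607 and 1.64 at D7, 3.74, 0.976, 0.153, 3.77 and 0.845 in Chronic, and 1.006, 0.158 and 0.561 in Control. Aqp1 (chromosome 4, 85812784 to 85824964) was dim throughout, with 0.703, 0.149, 0.172, 0.823 and 0.177 at D3, 0.12, 0.143, 1.54, 0.0834 and 1.05 at D7, 1.44, 0.436, 0.183, 1.4 and 0.443 in Chronic, and 0.518, 0.132 and 0.252 in Control. Spots of Aqp1 were flagged low on 9 of the 18 arrays and those of Slc4a5 on 8, so that their lowest values are near the detection limit and have no firm order.

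The receptors and the transcription factor gave the same picture, with 1 exception. Folr1, the folate receptor alpha that carries folate into the fluid (chromosome 1, 165631462 to 165650430), read 8.46, 1.13, 1.18, 6.35 and 1.3 at D3, 1.41, 1.27, 14, 1.05 and 8.93 at D7, 16.1, 4.62, 1.62, 14.5 and 3.77 in Chronic, and 10.03, 6.68 and 2.24 in Control. The spot of D3 array 14 was flagged as contaminated and entered no fit. The value of 6.68 on Control array 36 came from a spot flagged good, while the other 9 members lay below their medians on that array. Prlr, the prolactin receptor (chromosome 2, 60861391 to 61051883), read 4.52, 0.222, 0.137, 2.56 and 0.123 at D3, 0.318, 0.102, 6.38, 0.199 and 2.31 at D7, 8.46, 2.38, 0.228, 5.6 and 1.78 in Chronic, and 2.92, 0.406 and 0.585 in Control. Kl, klotho, a co-receptor for fibroblast growth factor 23 (chromosome 12, 5326003 to 5367016), read 1.16, 0.207, 0.0647, 0.807 and 0.111 at D3, 0.122, 0.181, 1.66, 0.172 and 1.16 at D7, 1.72, 0.636, 0.0994, 1.86 and 0.554 in Chronic, and 0.544, 0.216 and 0.185 in Control. Its spot was flagged low on 9 arrays. Otx2, a homeodomain transcription factor of the epithelium (chromosome 15, 24422876 to 24432709), read 3.79, 0.168, 0.298, 2.57 and 0.343 at D3, 0.428, 0.578, 7.14, 0.377 and 3.36 at D7, 5.29, 1.94, 0.504, 6.08 and 1.68 in Chronic, and 2.42, 0.206 and 0.994 in Control. For each of these 4 genes the groups overlapped, and the lowest Chronic value was that of array 43.

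**Figure D1:**
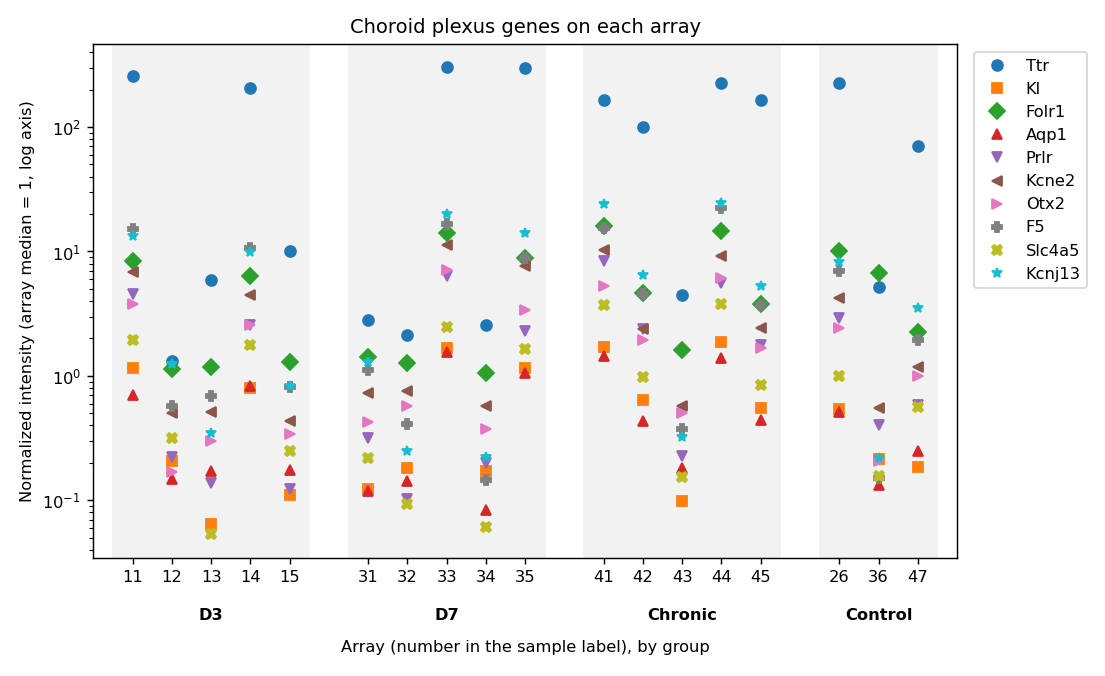
Deposited normalized intensity (log axis, array median = 1) of the 10 choroid plexus genes on each of the 18 arrays, by group, with 1 symbol per gene. Within D3, D7 and Chronic the genes rise and fall together from array to array, and Control array 36 is low for all but Folr1.

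Averaged over the members, the log2 level above the Control mean was 2.22, -1.64, -1.97, 1.98 and -1.44 on the D3 arrays, -1.32, -1.91, 2.80, -2.23 and 2.04 on the D7 arrays, 2.79, 1.04, -1.67, 2.83 and 1.008 on the Chronic arrays, and 1.60, -1.61 and 0.02 on the Control arrays. The arrays of a same group were thus up to 5.03 log2 units apart in D7, 4.50 in Chronic, 4.19 in D3 and 3.21 in Control. The group means were -0.17 ± 2.08 at D3, -0.12 ± 2.36 at D7, 1.20 ± 1.84 in Chronic (SD, n = 5 each) with an SD of 1.60 in Control (n = 3), whose mean is 0 by definition, and each group's range overlapped those of the others. In Chronic, 4 of the 5 arrays lay above the Control mean, against 2 of 5 at D3 and at D7. The number of members with a spot flagged good was 4 to 9 per array at D3 and at D7, 6 to 10 in Chronic and 4 to 10 in Control.

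None of the fitted differences of the members from Control reached 2 standard errors. They ran from -1.44 (Folr1) to 0.79 (F5) at D3, from -2.40 (Ttr) to 0.57 (Otx2) at D7 and from 0.13 (Folr1) to 1.88 (F5) in Chronic, on the log2 scale. The largest standard errors were those of Ttr, which stood at -1.04 ± 1.84 (SE) at D3, -2.40 ± 1.92 at D7 and 0.83 ± 1.84 in Chronic. The D7 value of Ttr leaves out array 35, and with that spot taken as deposited it was -1.36. With the saturated spots also left out, as in the methods of the study, Ttr came to -3.33 at D3, -4.13 at D7 and 0.45 in Chronic. The Folr1 value at D3 leaves out array 14, and was -1.10 with it. For Kcnj13 the differences were 0.23 ± 1.70 at D3, -0.02 ± 1.70 at D7 and 1.61 ± 1.78 in Chronic, the last without array 42. The median over the members was -0.10 at D3, 0.09 at D7 and 1.24 in Chronic, beside -0.10, -0.12 and -0.12 over all genes. All 10 members had a higher mean log2 intensity in Chronic than in Control, but leaving out 1 array turned the sign for Folr1 (-0.24 without Chronic array 41, -0.20 without Chronic array 44 and -0.50 without Control array 47) and for Ttr (-0.71 without Control array 36). Against the time-matched control array alone, the mean difference over the members was -1.83 at D3, 1.40 at D7 and 1.19 in Chronic, so that the sign at D7 turned.

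A probe counts as called where it changed 2-fold or more and its adjusted p was below 0.05 (limma, Benjamini-Hochberg over 33806 probes). By this rule none of the 10 was called against Control or between the pilocarpine groups. Of all tested probes, 4.59% were called at D3, 3.49% at D7 and 2.89% in Chronic against Control, 0.322% in D7 against D3, 0.742% in Chronic against D3 and 0.0503% in Chronic against D7. None had an unadjusted p under 0.05 in any of these comparisons, where 34.2%, 32.1% and 29.4% of all probes did against Control at D3, D7 and Chronic, nor was any called by the methods' t-test, before or after Benjamini-Hochberg adjustment. As the members were chosen on these values, their count is a description only.

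**Figure D2:**
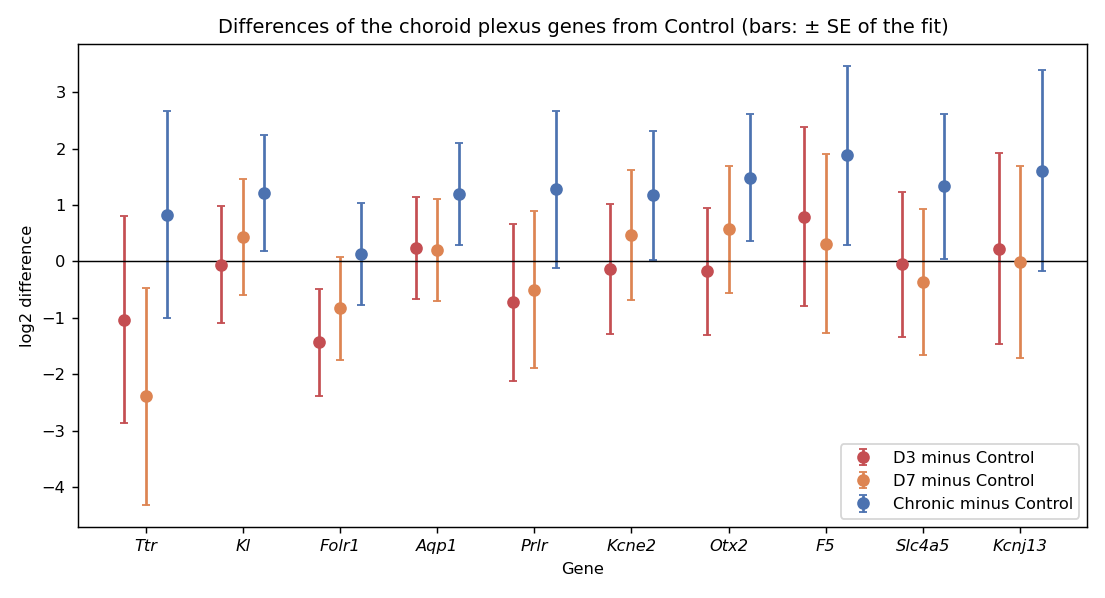
Fitted log2 differences of the 10 genes from Control (y axis) at D3, D7 and Chronic, with bars of ± SE. The point for Chronic lies above 0 for all 10 genes, from 0.13 to 1.88, where the bars of Ttr, Folr1, Prlr and Kcnj13 reach 0.

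The spread within groups, for which the genes were chosen, is given here without a test. Of the variation of the members over the 18 arrays, 80.9% (Folr1) to 93.2% (Kcnj13) lay within groups, and 90.3% for their mean, beside a median of 68.5% over all tested probes. The residual standard deviation within groups was 3.01 for Ttr, 2.78 for Kcnj13, 2.57 for F5, 2.25 for Prlr, 2.08 for Slc4a5, 1.86 for Kcne2, 1.82 for Otx2, 1.65 for Kl, 1.49 for Folr1 and 1.45 for Aqp1, in log2 units. The median tested probe had 0.29. Ttr ranked 3 and Kcnj13 ranked 5 of all tested probes by this spread. Of the 100 probes with the largest spread, 13 were those of the members, which is every probe they have, and 7 belonged to other genes of the epithelium. Left out one at a time, arrays moved the within-group share of the mean from 90.3% to values between 79.1% (without Chronic array 43) and 95.5% (without Chronic array 44).

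**Figure D3:**
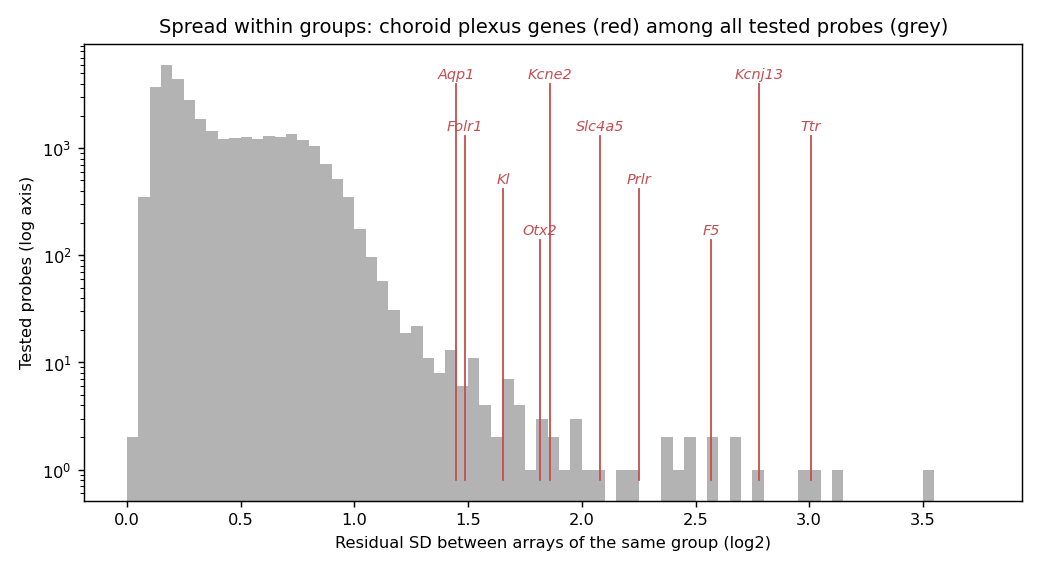
Residual standard deviation between arrays of a same group (x axis, log2) for all 33806 tested probes (grey, number of probes on a log axis), with the 10 genes as red lines. The 10 genes lie between 1.45 and 3.01, where the median probe has 0.29.

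The members moved together closely. With group means removed, each member correlated with the mean of the 10 at Pearson's r of 0.91 (Folr1) to 0.99 (Kcne2) over the 18 arrays, and the 45 pairs of members at 0.79 (Ttr with Folr1) to 0.98 (F5 with Kcnj13), with a median of 0.93. These correlations are a description over arrays, and a member is part of the mean it is set against. The second probes behaved like the first, with r of 0.95 for Prlr, 0.98 for Kcne2 and 0.97 for F5.

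The gene outside the set with the pattern most like it was Mfrp, a membrane protein related to frizzled receptors, with r = 0.99. It read 15.8, 0.863, 1.03, 11.7 and 1.14 at D3, 1.4, 1.38, 22.7, 1.05 and 17.0 at D7, 31.6, 8.49, 1.52, 24.9 and 7.17 in Chronic, and 10.7, 1.1 and 2.71 in Control. Sostdc1, a secreted antagonist of BMP and Wnt signals, also had r = 0.99 and the largest residual spread of all tested probes, 3.53. It read 23.8, 0.339, 0.124, 16.9 and 0.342 at D3, 0.253, 0.0699, 29.7, 0.0845 and 20.2 at D7, 41.4, 9.72, 0.234, 41.7 and 9.89 in Chronic, and 15.01, 0.473 and 3.89 in Control. Cltrn (collectrin) had r = 0.98, Mdk, the heparin-binding growth factor midkine, 0.98, and Enpp2, which makes lysophosphatidic acid, 0.97. Abca4, a retinoid transporter, had 0.97, Scgb1c1, a secretoglobin, 0.96, Cox8b, a subunit of cytochrome c oxidase, 0.96, Glycam1, a mucin-like ligand of L-selectin, 0.95, and C1qtnf3, a secreted protein related to C1q, 0.95. Of these 10, Mfrp, Sostdc1, Cltrn, Enpp2 and Cox8b stand on the list of other epithelium genes. The choice depends on the measure, as only 4 of the 10 were among the 10 most alike by Spearman's rank correlation. Mdk and Enpp2 stayed well above background on every array, and were 11.2 and 5.15 at their lowest.

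Glycam1 differed from the members in how high it rose. It read 81.4, 0.857, 1.11, 36.9 and 3.34 at D3, 0.293, 0.466, 63.5, 0.362 and 37.3 at D7, 13.1, 3.54, 0.207, 7.15 and 12.2 in Chronic, and 2.77, 0.0509 and 0.869 in Control. On Chronic array 44, where the mean of the members was at its highest, Glycam1 was at 7.15, and on D3 array 11 at 81.4. This was seen after the values were known and was not tested.

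Of the other genes of the epithelium, a list of 38, 35 were measured, and 20 of them had r of at least 0.7 with the members' mean and 9 of at least 0.9. Among all tested probes other than the members, 1.06% reached 0.7 and 0.157% reached 0.9. The median r was 0.83 in the list and -0.09 over those probes. Some genes of the list did not follow the members, among them Abcc4 (r = -0.51), Perp (-0.44), Cab39l (-0.41), Slc15a2 (-0.35) and Ace (-0.34), and their spots were flagged good on 17 or 18 arrays, with residual spreads between 0.11 and 0.25. Probes of a gene could disagree. For Ace, the angiotensin-converting enzyme, the brighter probe had r = -0.34 and the other 0.90, with intensities of 1.63 to 11.8. For Htr2c, the serotonin receptor 2C that choroid plexus epithelium and neurons both make, 3 probes had r of 0.77 to 0.87 and the remaining one, bright on all arrays at 8.43 to 14.5, had -0.16. Cldn2, Slc13a4 and Trpm3 also have probes that differ, and the parts of the transcripts they read are not given in the sources used here.

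With each gene given by its brightest probe, 2 of these 35 genes were called higher at D3 than in Control, none at D7, 2 higher in Chronic, and none lower at any time. Between the pilocarpine groups, 1 was called higher in Chronic than at D3, and none in D7 against D3 or Chronic against D7. At an unadjusted p under 0.05 the numbers were 12, 8 and 9 against Control at D3, D7 and Chronic, 4 in D7 against D3, 7 in Chronic against D3 and 3 in Chronic against D7. Of all tested probes, 34.2%, 32.1% and 29.4% reached this against Control at D3, D7 and Chronic, 12.7% in D7 against D3, 16.7% in Chronic against D3 and 10.1% in Chronic against D7, and the called shares of all probes are those given above. The list's counts are near these shares in most comparisons. Of the dimmer probes of listed genes, those of Cldn2, a tight junction claudin, had calls, with 1 lower at D3 (-1.36) and higher in Chronic than at D3 (1.15) and another higher at D7 (1.74), whereas its brightest probe was not called. The dimmer probes of Cldn2 were flagged good on 1, 3 and 8 of the 18 arrays and read 0.0197 to 0.828. These calls therefore lie close to the detection limit. The methods' t-test with Benjamini-Hochberg adjustment called 1 at D3 and none elsewhere. The list median was -0.13 at D3, -0.05 at D7 and 0.42 in Chronic, beside -0.10, -0.12 and -0.12 over all genes. Among the genes called were Ecrg4 and Lbp, whose r with the members' mean was 0.47 and -0.17.

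Of the 14 measured markers of the meninges and stroma, 2 were called higher at D3, where 4.59% of all probes were called. Aldh1a2, which makes retinoic acid, and Slc6a13, a GABA and taurine transporter of the meninges, rose at D3 by 1.53 ± 0.47 and 1.65 ± 0.52 (limma adjusted p = 0.0255 and 0.0271), with none called at D7 or in Chronic. Aldh1a2 read 5.21, 11.2, 6.52, 4.28 and 11.2 at D3, 6.23, 3.26, 4.69, 2.25 and 2.94 at D7, 8.35, 3.50, 2.30, 9.27 and 2.84 in Chronic, and 1.84, 1.59 and 5.15 in Control. The sum of the list was 62.7 to 107 per array at D3, 48.7 to 87.9 at D7, 52.6 to 103 in Chronic and 43.8 to 83.9 in Control, with 1 gene, Igf2, flagged low on every array. The groups overlapped, and Control array 47 lay above D3 arrays 13 and 14. Their part in the D3 values of the epithelium list was not tested.

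Ecrg4, the precursor of the secreted peptide augurin, read 1.72, 1.006, 1.58, 1.19 and 1.23 at D3, 2.21, 1.31, 3.71, 2.08 and 3.25 at D7, 3.94, 3.27, 3.69, 2.59 and 1.63 in Chronic, and 1.18, 1.23 and 1.2 in Control, with the spot of D3 array 13 flagged as contaminated and left out of the fit. All D7 and Chronic arrays lay above the 3 Control arrays, and Chronic array 43, where the members were low, was at 3.69. At D7 the highest values, 3.71 and 3.25, were on arrays 33 and 35, where the members were high. A part of the epithelium in these values was not tested. Ecrg4 rose in Chronic by 1.26 ± 0.30 (limma adjusted p = 0.00972), and was 0.97 ± 0.30 at D7 (limma adjusted p = 0.03), just under the 2-fold limit. It rose in Chronic against D3 by 1.19 ± 0.27 (limma adjusted p = 0.0217). This call against D3 was lost when D3 array 12, 14 or 15 or Chronic array 41 or 42 was left out, with 1.08 to 1.40 over all 18 arrays left out in turn and an adjusted p of up to 0.0866. Against the time-matched control array alone the Chronic difference was 1.26 with an adjusted p of 0.259.

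Lbp, the lipopolysaccharide-binding protein, was called at D3 by 1.90 ± 0.65 (log2, SE, limma adjusted p = 0.0418), but its spots were flagged low on all 3 Control arrays and on 3 of the 5 D3 arrays. It read 0.171, 0.748, 0.0612, 0.146 and 0.383 at D3, 0.205, 0.0919, 0.182, 0.198 and 0.0411 at D7, 0.125, 0.121, 0.214, 0.117 and 0.109 in Chronic, and 0.112, 0.0111 and 0.0479 in Control. Only D3 arrays 12 and 15 were flagged good, and the groups overlapped. Without D3 array 12 the difference was 1.45 (limma adjusted p = 0.107), and it also lost its call without D3 array 11 or 15 or Control array 36 or 47.

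**Figure D4:**
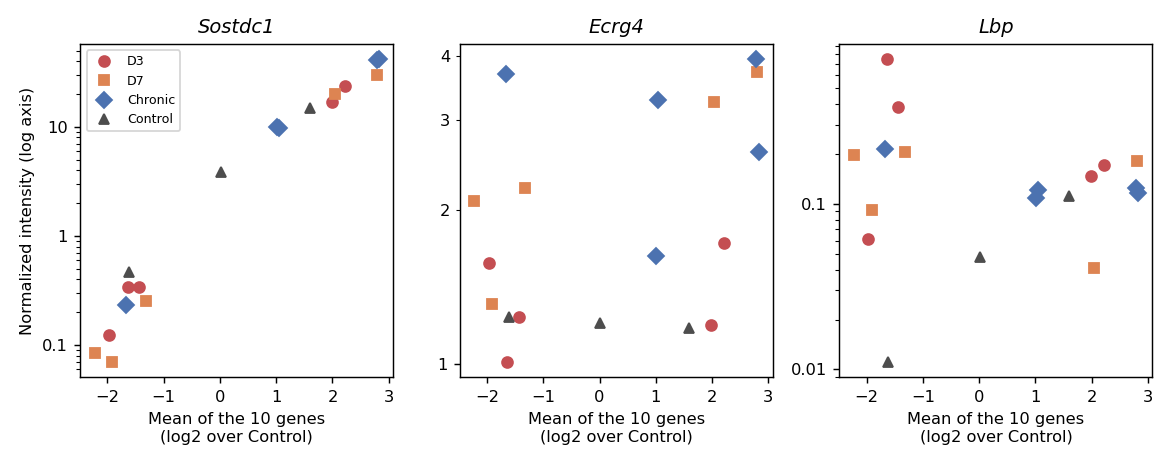
Normalized intensity (log axis) of Sostdc1, Ecrg4 and Lbp on each of the 18 arrays against the mean log2 level of the 10 choroid plexus genes on the same array, by group. Sostdc1 follows the 10 genes over the whole range, whereas Ecrg4 is at 3.94 and at 3.69 on Chronic arrays 41 and 43, where the 10 genes are high and low. At D7 Ecrg4 is highest, at 3.71 and 3.25, on arrays 33 and 35, where the 10 genes are high.

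Markers of other tissue that a dissection can hold were set beside the members on each array. Ependymal and ciliary genes, of which 10 of 15 were measured, summed to 33.1 to 41.5 at D3, 29.6 to 54.5 at D7, 33.3 to 52.1 in Chronic and 28.6 to 33.03 in Control. None was called, where 4.59%, 3.49% and 2.89% of all tested probes were called against Control at D3, D7 and Chronic. The median difference of these 10 genes from Control was 0.46 at D3, 0.52 at D7 and 0.77 in Chronic. Over all genes it was -0.10, -0.12 and -0.12. At an unadjusted limma p under 0.05 there were 3, 3 and 5 of the 10, where 34.2%, 32.1% and 29.4% of all probes were. D7 array 33 and Chronic array 41, high in the members, had the highest sums, 54.5 and 52.1. Some of these genes varied with the members. Spef2 (r = 0.77), Tekt1 (0.75), Dynlrb2 (0.73) and Mlf1 (0.70) reached 0.7, as did 1.06% of all tested probes other than the members. The others ran from 0.66 (Foxj1) down to -0.65 (Rsph1). Foxj1, the master regulator of motile cilia, was dim, from 0.129 to 0.778. Among the 6 measured thalamic genes, Slc17a6, the vesicular glutamate transporter 2, was at 15.5 on Chronic array 41, against 2.68 to 6.32 on the other Chronic arrays, and Tcf7l2, a transcription factor of thalamic neurons, at 21.1 against 6.05 to 8.61. A second, dimmer probe of Tcf7l2 was called higher at D3 and in Chronic. Array 41 was also high in the members, but on Chronic array 44, just as high in them, Slc17a6 was 2.68 and Tcf7l2 6.05. Ntng1 of the same list fell at D7 by 1.03 on the log2 scale (limma adjusted p = 0.000508).

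Of the striatum list, 7 of 7 genes were measured, with r with the members' mean from -0.57 (Pde10a) to 0.36 (Drd2). Against Control 1 of them was called, lower in Chronic, where 2.89% of all tested probes were called. In the lists below, r of single genes with the members' mean ran from -0.47 (Pou3f1, hippocampal neurons) to 0.49 (Kdr, endothelium). Housekeeping genes (5 of 10 measured) summed to 311 to 360 at D3, 330 to 350 at D7, 332 to 369 in Chronic and 403 to 518 in Control, and none was called. Their median difference from Control was -0.49 at D3, -0.43 at D7 and -0.34 in Chronic. At an unadjusted limma p under 0.05 there were 5, 4 and 4 of the 5, where 34.2%, 32.1% and 29.4% of all probes were. Myelin genes (7 of 7) summed to 226 to 355 at D3, 279 to 341 at D7, 251 to 388 in Chronic and 220 to 304 in Control, with none called. The endothelial sum was 58.7 to 68.7 at D3, 50.7 to 64.8 at D7, 42.8 to 51.5 in Chronic and 46.9 to 65.7 in Control, also without a call. Of the blood genes, with 5 of 9 measured, the erythroid Alas2 fell on the log2 scale by 1.70 at D3 and by 2.44 at D7, the platelet gene Pf4 rose by 1.48 at D3 and by 1.26 at D7, and the haemoglobin gene Hba-a2 was flagged low on every array. Of the 4 measured genes of border macrophages, 3 were called higher at D3 and D7, namely Lyve1, F13a1 and Stab1, and 1 in Chronic. Of all tested probes, 4.59%, 3.49% and 2.89% were called against Control at D3, D7 and Chronic. In lists as short as those above, having no call is near these shares. Lamp5 of the neocortex list fell at D3 by 1.41 while Rorb rose, just past the 2-fold limit. Of the 10 hippocampal neuron genes listed, 5 were measured. Only Fibcd1, a gene of CA1 pyramidal neurons, was called against Control, lower at each time. It was 8.55 to 17.2 at D3, 6.25 to 27.5 at D7, 11.6 to 23.0 in Chronic and 40.6 to 42.6 in Control. It fell at D3 by 1.87, at D7 by 1.30 and in Chronic by 1.33 on the log2 scale (limma adjusted p of 0.00106, 0.0162 and 0.0166). The median of the 5 differences was -0.56 at D3, -0.50 at D7 and -0.40 in Chronic. The highest were -0.24, -0.19 and 0.51. Their r with the members' mean ran from -0.47 (Pou3f1) to -0.14 (Prox1). Their mean level was lowest on D7 array 33, at -1.56, and was -0.13 on Chronic array 44. Both arrays were high in the members. Whether any of these tissues took part in the spread of the members was not tested.

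**Figure D5:**
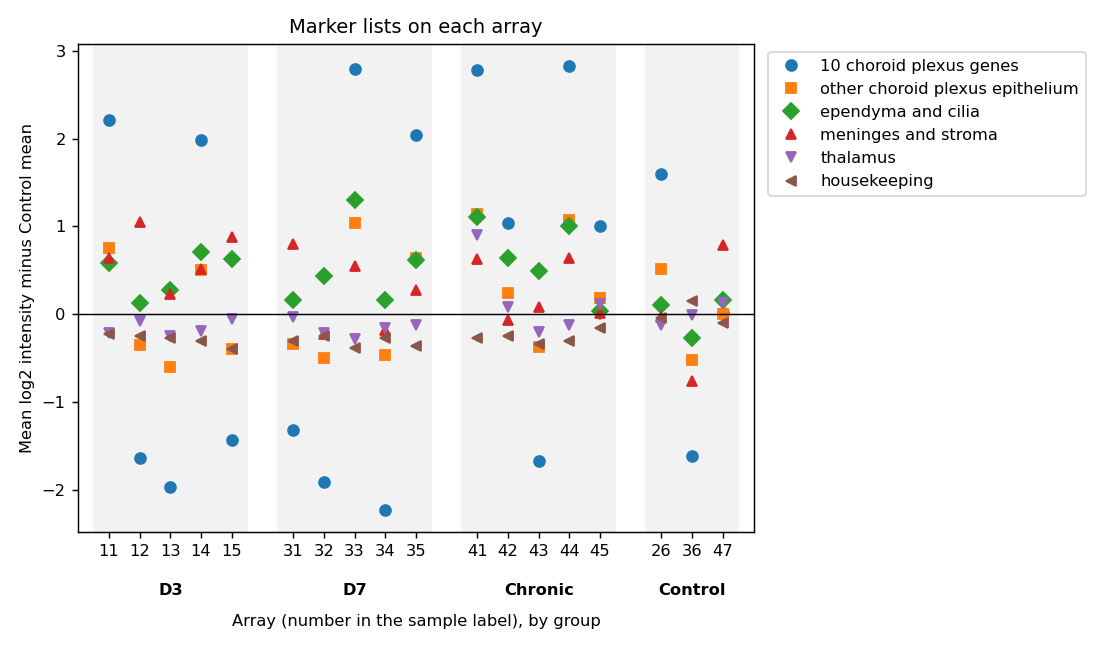
Mean log2 intensity above the Control mean (y axis) of the 10 choroid plexus genes and of 5 marker lists on each of the 18 arrays, by group. The other epithelium genes follow the 10 genes with a smaller range, from -0.61 to 1.14. The housekeeping genes lie between -0.39 and -0.15 on the pilocarpine arrays and between -0.10 and 0.15 on the Control arrays.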

How the data were processed

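RNA of rat hippocampi was hybridised by the authors to CodeLink Rat Whole Genome arrays, 1 sample per array. The deposited values are spot intensities on a linear scale, with a flag for each spot. The CodeLink analysis software corrected them for background and divided them by the array median. Groups were taken from the sample labels. Here spots flagged good (G), low (L) or saturated were kept and the others left out, whereas the study kept G and L. Values were floored at percentile 1 of the positive values of an array and brought to log2. Of 33849 gene probes, 33806 entered a fit of the 4 groups (lmFit and eBayes with an intensity trend, limma 3.58.1, R 4.3.3) after a check on simulated data, with Benjamini-Hochberg adjustment over all of them. Each gene is given by its brightest probe, and 16739 probes have no gene name. Likeness is Pearson's r with the mean of the members over 18 arrays, with group means removed. The genes named are the members, called genes of the other epithelium list and the 10 most alike. The most alike were taken among genes with a spot flagged good on 9 or more arrays. Of each other list, the first 3 measured and any called (at most 5) were to be named. Not all of these are named, and some genes outside them were named for their r. Other epithelium genes named for a low r or for probes that disagree were chosen after their values were seen. Some called genes are not reported here. The members and lists were chosen with earlier results of these data known. The methods give 5 animals and 5 separately hybridised samples for each group, and do not say which animal is on which array. The p-values measure the spread between these samples. The number of arrays, 3 in Control, limits the precision. The methods describe a separate age-matched control group for each time, whereas the 3 control arrays here, 1 per time, were taken as 1 group. Alternatives were other scalings, floors, flags, probes, controls and tests, each array left out in turn, and the member mean as a covariate.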

Additional observations from a re-analysis of the deposited data

Results flagged for a closer look

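Within groups of 5 arrays, 42 combinations of gene and group were searched for an array far from the others, and 4 were found. The limit was Dixon's criterion (0.71 of the range), and was higher where a spot had been left out. In separate samples from a normal distribution, about 1 in 20 meets it. The members were chosen for their spread and moved together, so that this rate does not hold for them. The 4 are a description only. Folr1 on D3 array 11 had a log2 intensity of 3.08, with the next at 0.38, after the contaminated spot of D3 array 14 (6.35 on the linear scale) had been left out. Ttr on D7 array 33 had 8.24, with the next at 1.49, after the spot of D7 array 35 (299 on the linear scale) had been left out. In both cases the array left out was the other bright one. Ttr on Chronic array 43 was the lowest at 2.16, with the next at 6.64, on the array where the other members were also low. Lbp on the same array was the highest of its group at -2.23, with the next at -3.003, but all 5 spots were flagged low. Ecrg4 differed between the pilocarpine groups, higher in Chronic than at D3 by 1.19 in log2 (limma adjusted p = 0.0217).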

How the results depend on the processing

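The mean difference of the members from Control was 1.21 in Chronic, -0.21 at D7 and -0.24 at D3, and with each array left out in turn ran from 0.40 to 2.01 in Chronic, from -1.02 to 0.58 at D7 and from -1.04 to 0.56 at D3. Against the time-matched control array alone it was 1.19 in Chronic, 1.40 at D7 and -1.83 at D3, with the sign turned at D7. Over all alternatives 853 of 927 differences, of single members or of their average, kept their sign. Those that moved by over 1 SD, 4 in number, were at D7 against the time-matched control array alone, with 0.68 for Ttr, 2.51 for Otx2, 3.38 for F5 and 3.05 for Kcnj13. The within-group share of 90.3% ran from 79.1% to 95.5% with arrays left out. Of the 10 genes most alike, 4 remained with Spearman's correlation and 8 to 10 with arrays left out. The number of other epithelium genes called at D3, 2 as reported, was 1 under quantile normalization, the time-matched control, the floor at percentile 5, no intensity trend and the methods' t-test adjusted or not, and 8 with no fold limit. At D7 it was 0 as reported, 1 under quantile normalization, scaling at percentile 75, the methods' t-test unadjusted or the member covariate, and 5 with no fold limit. In Chronic it was 2 as reported, 0 under the time-matched control and the adjusted methods' t-test, 1 with the member covariate and 5 with no fold limit. For Chronic against D3 it was 1 as reported, 0 without the intensity trend or with the adjusted methods' t-test, and 3 with no fold limit. Leaving out arrays gave 1 to 3 at D3, 0 to 1 at D7, 1 to 3 in Chronic and 0 to 1 for Chronic against D3. The cause of these changes was not tested. Slide and scan were not used as blocks, as the files read here give neither. No paired analysis was possible because no replicate number occurs in more than 1 group.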

Other observations

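With the mean of the 10 choroid plexus genes as a covariate for every probe, the number called against Control was 1636 at D3 (1552 without the covariate, 1546 shared), 1260 at D7 (1180 without, 1169 shared) and 840 in Chronic (977 without, 796 shared). For the pilocarpine groups it was 124 for D7 against D3 (109 without, 107 shared), 281 for Chronic against D3 (251 without, 230 shared) and 19 for Chronic against D7 (17 without, 15 shared). The covariate is itself measured on these arrays. Among the probes called without it, 19 (1.22%) at D3, 14 (1.19%) at D7 and 14 (1.43%) in Chronic had r of at least 0.7 with the members' mean, beside 1.06% of all tested probes other than the members.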
